A study of Mus musculus with 2 samples.

Results

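The cells described here are endothelial cells of the mouse adrenal gland that carry Plvap, the gene of the diaphragm protein of fenestrated endothelium, together with genes led by Bgn and Sema3d. They were chosen by a gate. A cell entered when it had at least 1 UMI (unique molecular identifier, a counted RNA molecule) of Plvap, when at least 2 of the 6 genes Bgn, Sema3d, Car8, Shisa9, Oit3 and Ppfia2 were detected, and when Esm1 and Npr3 summed to fewer than 2 UMIs. The gate held 985 of 9927 cells that passed quality filters, and 985 of 6028 Plvap-positive cells. Of these, 379 came from the VEGF/LysM library and 606 from the WT library. The other 5043 Plvap-positive cells, 2005 of VEGF/LysM and 3038 of WT, served for comparison.

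The series holds 1 single-cell library from VEGF/LysM mice and 1 from wild-type (WT) mice, both female and 12 weeks old, and was made to ask how VEGF-A from macrophages bears on endothelial diversity in the gland. Viable CD31+ CD45- cells were sorted after a cold protease digestion and loaded on the 10x Genomics platform. LysM is another name of Lyz2, a lysozyme gene active in macrophages and neutrophils; the labels do not spell out the alleles behind VEGF/LysM, nor the number of mice pooled in each library. With 1 library per genotype there was no replicate check, so every difference below is one between 2 libraries, and all intervals are 95% intervals that cover counting error only.

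Adrenal hormones reach the blood through thin, fenestrated sinusoids that run from the capsule through the cortex and drain into medullary venules. The fenestrae are small pores closed by a diaphragm built from the Plvap protein, and endothelial fenestration in endocrine glands is known to need VEGF-A acting on the receptor encoded by Kdr. Venous and venular endothelium is classically marked by the transcription factor Nr2f2, by the receptor Ephb4 and, in postcapillary venules, by adhesion molecules for leukocytes. Of the gate genes, Bgn encodes biglycan, a small proteoglycan of the matrix, Sema3d a secreted guidance cue, Car8 a carbonic anhydrase-related protein, and Ppfia2 a liprin scaffold protein.

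The label venular was checked against marker genes outside the gate. Gated cells held Nr2f2 at 1049 CPM in VEGF/LysM and 898 CPM in WT (UMIs of the gene per 1000000 UMIs summed over the cells), against 421 and 436 CPM in the other Plvap-positive cells of the same libraries. Other genes of venules were mixed. Vcam1 stood at 95.8 CPM in gated and 27.6 CPM in other cells of VEGF/LysM, and at 93.7 and 32.8 CPM in WT, and Icam1 at 87.6 and 60.5 CPM in VEGF/LysM, and at 91.0 and 83.9 CPM in WT. In gated cells Selp stood at 3 UMIs in VEGF/LysM and 0 in WT, Ackr1 at 0 UMIs in both, while Vwf stood at 14.98 against 10.9 CPM in VEGF/LysM and 9.01 against 6.21 CPM in WT. The venous markers were thus split, and the cells are called gated cells here. Pan-endothelial genes were at the level of their neighbours, with Pecam1 at 1280 CPM in gated and 1212 CPM in other Plvap-positive cells of VEGF/LysM, and at 1320 and 1313 CPM in those of WT. Defining genes of mural cells (Pdgfrb, Cspg4, Acta2) and of fibroblasts (Dcn, Lum, Col1a1, Col3a1) had 0 UMIs in gated cells of both libraries, although Bgn is best known from such cells. Other members were not all at 0. The mural list of 9 genes summed to 13 UMIs in VEGF/LysM (9.73 against 24.6 CPM in other cells) and 15 in WT (13.5 against 17.8 CPM). The fibroblast list of 8 genes summed to 1 UMI (0.75 against 1.36 CPM) and 3 UMIs (2.70 against 1.33 CPM).

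The libraries differed in depth. Gated cells had a median of 3089 UMIs in VEGF/LysM and 1544 in WT, and other Plvap-positive cells 2527 and 1265, with 1335431 and 1109679 UMIs summed over the gated cells. Only 10 barcodes occurred in both libraries, 2 of them in gated cells. Vegfa itself was scarce in gated cells, with 10 UMIs (7.49 CPM) in VEGF/LysM and 13 UMIs (11.7 CPM) in WT, and sorted endothelial cells do not show whether macrophages had lost it.

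The gate genes are given as a description, since they chose the cells. Exactly 2 of them were detected in 188 of 379 gated cells of VEGF/LysM (49.6%) and in 362 of 606 of WT (59.7%), while all 6 were seen in 3 cells of VEGF/LysM and 1 of WT. Just outside lay 257 cells of VEGF/LysM and 601 of WT that met every other condition with exactly 1 gate gene. Bgn was detected in 78.6% of gated cells of VEGF/LysM and 72.8% of WT, and Bgn with Sema3d was the commonest pair, in 158 and 201 cells. When each gene was left out of the gate in turn, its level in the cells kept was 3.41 to 11.6 times that in the other Plvap-positive cells in VEGF/LysM and 2.48 to 4.76 times in WT. Shisa9 gave the highest of these ratios in both libraries, 76.5 against 6.60 CPM in VEGF/LysM and 83.7 against 17.6 CPM in WT, and Ppfia2 the lowest.

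Of the 14 genes named below as higher in gated cells, 7 have a promoter in the RefSeq table used (GRCm38.p6), and those holding a searched motif in the 250 bases before the start are printed to show the sequence at genes that share a cell group. The motifs searched, each on both strands, were the nuclear receptor recognition string AGGTCA, a letter string that Nr2f2-type receptors are known to bind, the AP-1 site TGACTCA and the E-box CACGTG. Capitals mark the first and the second. The genes printed were chosen after their matches were seen. The printed windows are chr2:145167525-145167774 (plus strand), chr17:34670285-34670534 (plus strand) and chr2:36105409-36105658 (minus strand), and the window of Cyp26b1, chr6:84593811-84594060 (minus strand), is shown because that gene ranked first among those lower in VEGF/LysM.
Slc24a3: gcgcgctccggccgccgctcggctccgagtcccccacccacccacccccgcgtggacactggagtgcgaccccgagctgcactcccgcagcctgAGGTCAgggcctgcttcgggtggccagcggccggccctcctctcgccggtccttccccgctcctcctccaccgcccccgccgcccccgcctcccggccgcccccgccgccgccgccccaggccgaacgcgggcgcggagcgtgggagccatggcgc
Tnxb: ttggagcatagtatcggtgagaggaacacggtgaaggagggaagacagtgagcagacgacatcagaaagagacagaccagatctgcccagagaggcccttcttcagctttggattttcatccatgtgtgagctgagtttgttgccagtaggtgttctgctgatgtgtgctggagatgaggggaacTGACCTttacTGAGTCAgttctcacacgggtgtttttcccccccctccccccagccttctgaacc
Lhx6: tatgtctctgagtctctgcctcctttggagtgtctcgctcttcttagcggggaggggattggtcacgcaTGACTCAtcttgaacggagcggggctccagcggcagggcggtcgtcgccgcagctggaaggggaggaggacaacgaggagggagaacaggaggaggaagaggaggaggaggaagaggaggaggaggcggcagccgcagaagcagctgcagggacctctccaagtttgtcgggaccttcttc
Cyp26b1: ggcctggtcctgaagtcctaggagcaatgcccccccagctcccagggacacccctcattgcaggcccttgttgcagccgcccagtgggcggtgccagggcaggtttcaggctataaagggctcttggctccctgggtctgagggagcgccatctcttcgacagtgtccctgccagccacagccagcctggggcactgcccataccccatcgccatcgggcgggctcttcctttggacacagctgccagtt
The 7 genes have 13 windows. AGGTCA occurred in 2 of the 13 (15.4%), 1 each of Slc24a3 and Tnxb, and in 14.02% of all 32851 windows of this length. TGACTCA occurred in 2 of the 13 (15.4%), 1 each of Tnxb and Lhx6, and in 4.46% of all windows. CACGTG occurred in 0 of the 13 and in 6.02% of all windows. Of the 14 genes named as lower, 11 have a promoter there, with 1 window each, and the first string occurred in 0 of the 11, the AP-1 site in 2 and the E-box in 2. Neither the first string nor the AP-1 site was in the printed window of Cyp26b1. A match is a string of letters and not a shown binding site.

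The top-ranked genes against the other Plvap-positive cells, over both libraries, were Nlgn1, Gm6213 and Slc24a3 among those higher, and Gzmk, AC167229.1 and Gm14226 among those lower. Of 7893 genes with at least 100 UMIs over the compared cells of each library, 2.2% were at least 1.5-fold higher in gated cells in both libraries and 2.94% at least 1.5-fold lower. The highest-ranked gene was Nlgn1 (ENSMUSG00000063887, chromosome 3, 25426215 to 26332460, minus strand, GRCm38), which encodes neuroligin 1, an adhesion protein best known from synapses. Nlgn1 had 160 CPM in gated and 12.6 CPM in other Plvap-positive cells of VEGF/LysM, and 229 and 41.5 CPM in those of WT, log2 ratios of 3.67 (3.28 to 4.07) and 2.46 (2.19 to 2.74). Its UMIs were spread over 71 gated cells of VEGF/LysM and 125 of WT.

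Another adhesion gene was Pcdh9, a protocadherin, at 374 against 75.0 CPM in VEGF/LysM and 535 against 213 CPM in WT. Tnxb, which encodes tenascin X of the matrix, stood at 186 CPM in gated and 40.1 CPM in other cells of VEGF/LysM, and at 195 and 67.7 CPM in WT. Ctgf, a matricellular growth factor induced by mechanical signals, stood at 148 against 23.5 CPM in VEGF/LysM and 138 against 37.1 CPM in WT. Both were higher in gated cells of each library, but the list of basement membrane and vessel-wall matrix genes did not move one way: of 23 measured, 3 were higher (Col13a1, Eln, Emilin1) and 5 lower (Lama3, Lamb1, Hspg2, Sparcl1, Vwa1), with medians of 0.06 in VEGF/LysM and -0.05 in WT on the log2 scale. Of 7 neuronal-type adhesion genes 2 were higher, Nlgn1 and Pcdh9, with medians of 0.62 and -0.31.

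Also among the 14 highest-ranked genes were Lbp, the lipopolysaccharide-binding protein, Il33, a nuclear alarm cytokine of endothelium, Cxcl16, a transmembrane chemokine, Gpr182, a chemokine-scavenging receptor of sinusoidal and lymphatic endothelium, and Vcam1, the ligand of integrin alpha 4 on leukocytes. Lbp stood at 164 CPM in gated and 37.2 CPM in other cells of VEGF/LysM, and at 141 and 51.3 CPM in WT. Il33 stood at 174 and 53.5 CPM in VEGF/LysM, and at 216 and 82.3 CPM in WT. Gpr182 was the most abundant of them, at 340 and 102 CPM in VEGF/LysM and 338 and 132 CPM in WT. The log2 ratios of Cxcl16 were 2.26 in VEGF/LysM and 1.65 in WT, and those of Vcam1 1.79 and 1.51. These genes were picked by rank and form no list. Of 10 measured leukocyte adhesion and NF-kB response genes 1 was higher, Vcam1, and 1 lower, Cx3cl1, and of 19 interferon and class I genes 0 were higher and 3 lower.

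Transcription regulators on the list were Lhx6, a LIM homeobox factor known from interneurons, with log2 ratios of 1.78 in VEGF/LysM and 2.10 in WT, and Tox, known from T cells, with 2.84 and 1.70. Slc24a3, an exchanger of sodium for calcium and potassium, reached 2.72 and 2.20, and Gm6213, a long intergenic RNA, 3.02 and 2.09. B130024G19Rik, with 2.04 and 1.66, overlaps Nr2f2 on the opposite strand over 1826 bases of chromosome 7. Because the sources used here do not give the strand setting of the counting, its reads and those of Nr2f2 cannot be told apart in that stretch.

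**Figure D1:**
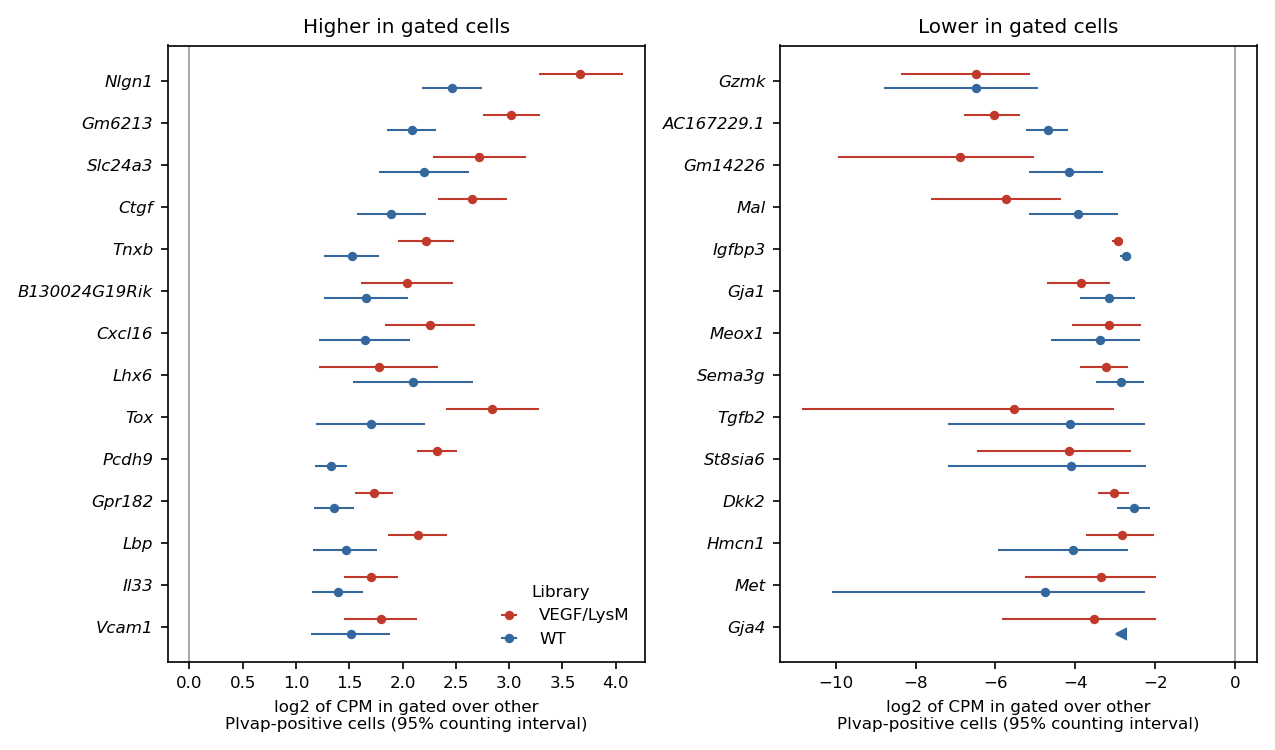
Log2 ratio of CPM in gated over other Plvap-positive cells for the 14 highest- and 14 lowest-ranked genes (rows) in the VEGF/LysM and the WT library. Points are ratios and lines 95% counting intervals; the triangle at Gja4 marks the upper bound where gated WT cells had 0 UMIs. In both libraries the points of the left panel lie at 1.33 or more and those of the right panel at -2.54 or less.

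The lowest-ranked genes were led by Gzmk, which encodes granzyme K, a protease best known from T cells, with 4 UMIs in gated cells of VEGF/LysM (3.00 CPM against 269 CPM in the others) and 3 UMIs in WT (2.70 against 244 CPM). Gzmk (chromosome 13, 113171608 to 113225908, minus strand) spans the gate gene Esm1 (113209659 to 113218098) on the opposite strand. Without the strand setting, reads of Gzmk and Esm1 cannot be told apart in that stretch, and the gate itself limited Esm1. Igfbp3, an insulin-like growth factor binding protein, was the most abundant of the lowest-ranked genes (ENSMUSG00000020427, chromosome 11, 7206086 to 7213923, minus strand). Igfbp3 stood at 310 CPM in gated and 2377 CPM in other cells of VEGF/LysM, and at 356 and 2389 CPM in WT, log2 ratios of -2.94 (-3.08 to -2.80) and -2.75. The level in gated cells was thus nearly the same in both libraries.

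The connexin genes Gja1 and Gja4 were both low. Gja1 had 11.2 CPM in gated and 163 CPM in other cells of VEGF/LysM, and 17.1 and 152 CPM in WT. Gja4 had 3 UMIs in gated cells of VEGF/LysM and 0 in WT, against 26.3 and 24.4 CPM in the other cells. Further genes at least 1.5-fold lower in both libraries were the Wnt modulator Dkk2 (log2 -3.04 in VEGF/LysM and -2.54 in WT), the homeobox gene Meox1, the growth factor Tgfb2, the receptor gene Met, the sialyltransferase gene St8sia6, the matrix gene Hmcn1 and the raft protein gene Mal. So were AC167229.1, a long intergenic RNA, and Gm14226, which is annotated as protein-coding.

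Part of the low group follows from the rule, which left out cells with Esm1 and Npr3. Against only those other Plvap-positive cells that also had fewer than 2 UMIs of Esm1 and Npr3, Igfbp3 still differed, at 310 against 1385 CPM in VEGF/LysM and 356 against 1322 CPM in WT. Gzmk then differed far less, at 3.00 against 13.1 CPM in VEGF/LysM and 2.70 against 36.0 CPM in WT. In the same comparison Nlgn1 kept log2 ratios of 3.31 in VEGF/LysM and 1.97 in WT, and Nr2f2 had 0.67 and 0.65, where all other Plvap-positive cells gave 1.32 and 1.04.

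Among venous and venular genes, 6 of 13 measured were at least 1.5-fold higher in gated cells in both libraries and 2 lower, with medians of 0.53 and 0.41 on the log2 scale where all genes had 0.03 and 0.01. The 6 were Nr2f2, Vcam1, Lrg1, which encodes a secreted glycoprotein of venules, Il1r1, the interleukin 1 receptor, and Csrp2 and Ctsh. Lrg1 stood at 270 CPM in gated and 99.4 CPM in other cells of VEGF/LysM, and at 208 and 100 CPM in WT. Aplnr, the apelin receptor, was lower instead, at 19.5 against 151 CPM in VEGF/LysM and 31.5 against 142 CPM in WT, and so was Vegfc. Ephb4 differed little, with log2 ratios of 0.39 and 0.22. In WT the ratios of Lrg1, Il1r1 and Csrp2 were 0.56, 0.56 and 0.40 against cells without Esm1 and Npr3. These fall short of 1.5-fold, which is 0.585 on the log2 scale, so the count of higher genes depends on the comparison cells. The list itself was chosen with earlier results of these data known.

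Arterial genes pointed the other way: 6 of 8 measured were lower and 1, Eln, was higher. Dll4, the Notch ligand of arterial and tip cells, stood at 77.1 CPM in gated and 232 CPM in other cells of VEGF/LysM, and at 95.5 and 215 CPM in WT. Efnb2, the arterial ephrin, had log2 ratios of -1.01 and -1.19, and Sema3g, a semaphorin of arterial endothelium, -3.25 and -2.86. Eln, which encodes elastin, stood at 77.9 against 16.5 CPM in VEGF/LysM and 39.7 against 17.5 CPM in WT. Of the continuous capillary genes 9 of 13 were lower and 0 higher, among them Car4, a carbonic anhydrase of capillaries, at 7.49 against 38.03 CPM in VEGF/LysM and 10.8 against 36.2 CPM in WT, and the lipid uptake genes Cd36 and Gpihbp1. The log2 ratio of Cd36 in VEGF/LysM, -0.72, was 0.12 after thinning to 1000 UMIs.

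Tip-cell and VEGF-A-responsive genes were lower for 6 of 15 measured, including Apln, Hspg2 and Cd34, and higher for 1, Adm, the vasodilator adrenomedullin. The rule kept cells over the Esm1 and Npr3 limit among the other cells, 1173 of 2005 in VEGF/LysM and 1236 of 3038 in WT. Without them 155 of 7893 genes were lower in gated cells, against 232 with them. The list counts were not repeated without them, so how far the counts follow from the rule was not tested. Of 6 measured VEGF receptors and ligands 0 were higher and 2 lower, Vegfc and Flt1, the decoy receptor. Flt1 stood at 2366 CPM in gated and 3900 CPM in other cells of VEGF/LysM and at 2298 and 3662 CPM in WT. Kdr stayed within 1.5-fold, with log2 ratios of -0.43 and -0.26. Of the 14 genes of fenestrae and caveolae, 1 was higher and 3 lower. Cavin2, a caveolar coat protein, stood at 548 against 223 CPM in VEGF/LysM and 687 against 342 CPM in WT, whereas Ehd2, the ATPase at the caveolar neck, had log2 ratios of -1.59 and -1.36, and Cav1 had -0.90 and -0.63.

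Other semaphorins did not accompany Sema3d. Of 12 measured semaphorin and plexin genes outside the gate, 0 were higher and 3 lower: Sema3g, Sema6d and Sema7a. Sema7a, a membrane-anchored semaphorin, stood at 33.7 against 205 CPM in VEGF/LysM and 38.8 against 200 CPM in WT. Plxnd1, the endothelial plexin, had log2 ratios of 0.00 and 0.03.

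Further groups also held higher members. Of the haemostasis genes 3 of 13 were higher and 2 lower: F8, coagulation factor VIII, stood at 554 against 190 CPM in VEGF/LysM and 550 against 249 CPM in WT, Gas6 and Tbxas1 were higher too, and Plat, the tissue plasminogen activator, was lower with log2 ratios of -1.51 and -1.48. Of the vasoactive genes 3 of 10 were higher and 0 lower: Ptgs1, a cyclooxygenase, Slco2a1, a prostaglandin transporter, and Adm. Of 7 measured scavenger receptor genes 1 was higher, Mrc1, the mannose receptor of sinusoids and macrophages, at 279 against 67.0 CPM in VEGF/LysM and 269 against 110 CPM in WT. Stab2 and Lyve1, defining genes of sinusoidal and lymphatic endothelium, had too few UMIs to be counted as measured. Stab2 had 40 UMIs in 14 gated cells of VEGF/LysM and 43 UMIs in 7 gated cells of WT, 28 of them in 1 cell. Lyve1 had 55.4 against 7.50 CPM in VEGF/LysM and 48.7 against 9.10 CPM in WT, and the lymphatic list of 6 genes that holds it summed to 76.4 against 16.2 CPM in VEGF/LysM and 73.0 against 28.0 CPM in WT. Of that list Pdpn and Ccl21a had 0 UMIs in gated and in other Plvap-positive cells, and Prox1, the lymphatic master regulator, stood at 15.7 against 8.18 CPM in VEGF/LysM and 19.8 against 12.7 CPM in WT. At least 3 genes of that list were detected in 0 of 379 gated cells of VEGF/LysM and 0 of 606 of WT. The part of lymphatic cells in these values was not tested further.

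Retinoic acid, a vitamin A product that acts through nuclear receptors, is cleared by the enzyme encoded by Cyp26b1. Cyp26b1 and Rbp7, a retinol-binding protein gene of capillaries, were lower in gated cells of both libraries. Cyp26b1 stood at 22.5 against 144 CPM in VEGF/LysM and 161 against 486 CPM in WT, although in WT the log2 ratio of -1.59 was -0.43 against cells without Esm1 and Npr3. The receptor gene Rarb stood at 470 against 266 CPM in VEGF/LysM and 619 against 457 CPM in WT.

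To set cells of unequal depth side by side, cells were thinned at random to 1000 UMIs and Plvap-positive cells under the Esm1 and Npr3 limit were split by that number, giving 772, 232, 108 and 31 cells of VEGF/LysM and 895, 441, 219 and 95 of WT with 0, 1, 2 and at least 3 genes. Igfbp3 stood at 1934, 978, 407 and 355 CPM in VEGF/LysM and at 1718, 696, 315 and 189 CPM in WT over these steps. Nr2f2 stood at 591, 927, 1417 and 903 CPM in VEGF/LysM, the last with an interval of 600 to 1305, and at 539, 796, 1009 and 968 CPM in WT. Cells with a single gate gene therefore lay between those with 0 and those with 2 for both genes. Against cells with at least 3 this held except for Nr2f2 in VEGF/LysM, at 927 and 903 CPM.

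**Figure D2:**
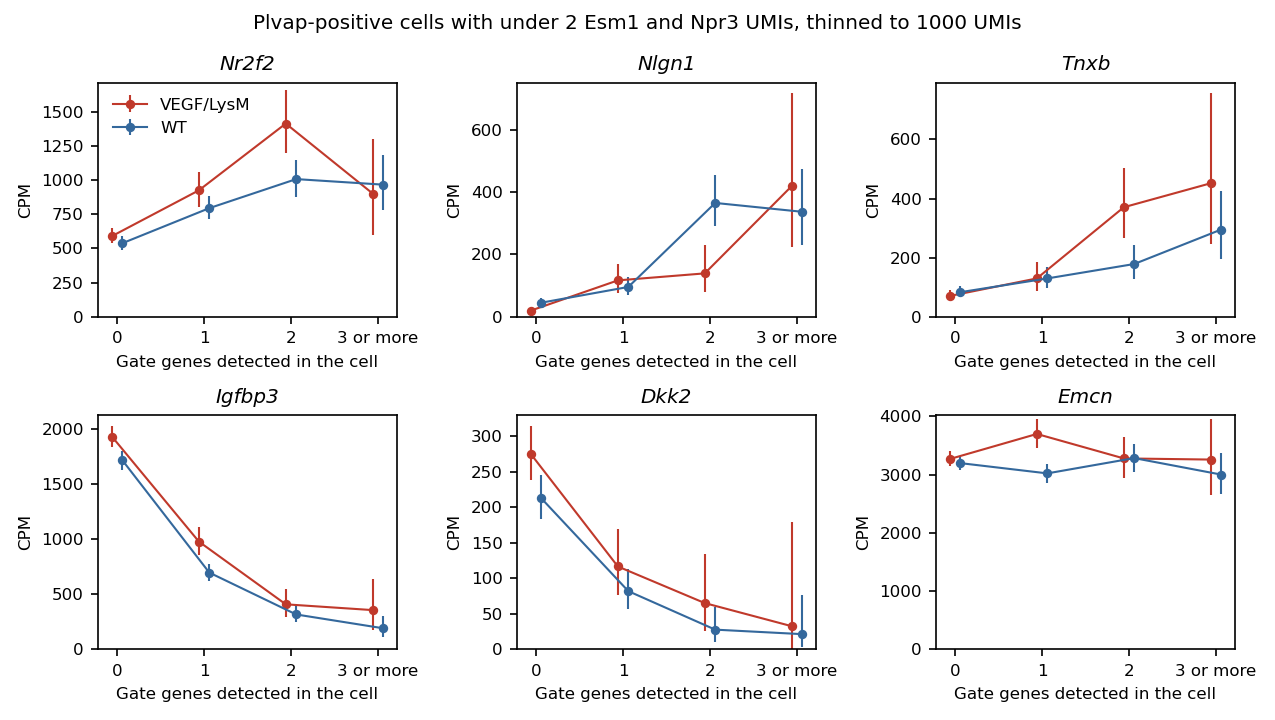
CPM of 6 genes (y axes) in Plvap-positive cells with 0, 1, 2 or at least 3 gate genes detected after thinning to 1000 UMIs, for VEGF/LysM and WT; lines through the points are 95% counting intervals. Igfbp3 and Dkk2 are lower with each step in both libraries, while Emcn, a pan-venous and capillary sialomucin gene, stays between 3000 and 3698 CPM.

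The gated cells were not uniform. Cells with Bgn, 298 of VEGF/LysM and 441 of WT, and cells without it, 81 and 165, had similar Nr2f2 levels (1045 and 1066 CPM in VEGF/LysM, 899 and 893 CPM in WT). Igfbp3 was lower in cells with Bgn, at 279 against 431 CPM in VEGF/LysM and 308 against 499 CPM in WT, and the intervals did not overlap in either library. Slc24a3 was higher in cells with Bgn, at 96.1 against 43.8 CPM in VEGF/LysM and 108 against 50.2 CPM in WT. At least 2 of Sdk1, Col13a1 and Lbp, genes of a neighbouring Plvap-positive type, were detected in 53.6% of gated and 14.5% of other cells of VEGF/LysM, and in 26.6% and 9.87% of WT. After thinning to 1000 UMIs these shares were 19.4% and 5.15% in VEGF/LysM, and 9.24% and 6.35% in WT.

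The share of Plvap-positive cells inside the gate depended on depth, since a gene is detected more easily in a deeper cell. As deposited it was 15.9% (14.5 to 17.4) in VEGF/LysM and 16.6% (15.4 to 17.9) in WT, by exact binomial (Clopper-Pearson) intervals. With every cell thinned to 1000 UMIs, which left out 290 shallower cells of VEGF/LysM and 2141 of WT, it was 7.94% (139 of 1751, 6.71 to 9.30) in VEGF/LysM and 13.96% (314 of 2250, 12.5 to 15.5) in WT. WT was also higher after thinning to 700 and to 1500 UMIs. The gate genes were themselves lower in VEGF/LysM in cells outside the gate: in Plvap-negative cells Bgn had 27.9 CPM in VEGF/LysM and 74.6 CPM in WT, and Oit3 4.50 and 34.9 CPM. These cells were not thinned, with medians of 1743 UMIs in VEGF/LysM and 1006 in WT, and Plvap is missed more easily in a shallower cell. Of them 25 of 1409 in VEGF/LysM and 116 of 2490 in WT met every other condition of the gate. How far missed Plvap enters these values was not tested. Fewer cells of this kind and less gate-gene RNA per cell cannot be told apart here.

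**Figure D3:**
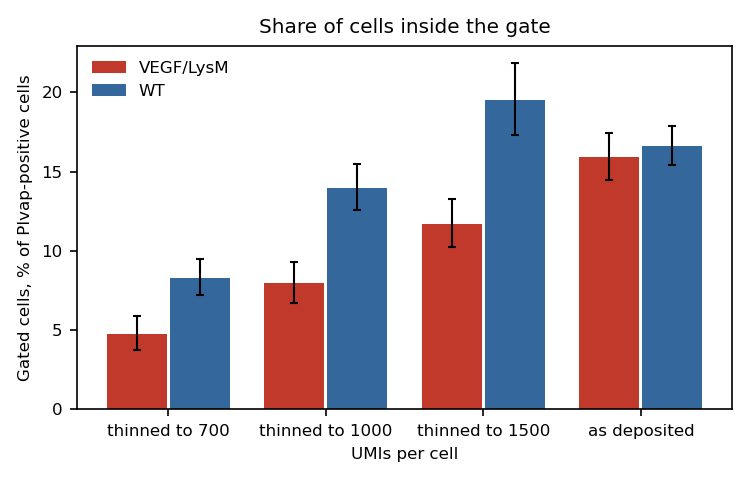
Share of Plvap-positive cells inside the gate (y axis, percent) at 3 thinning depths and as deposited (x axis); bars are VEGF/LysM and WT and error bars exact 95% binomial intervals. The bars are close only as deposited, at 15.9% and 16.6%, and WT is higher at each thinned depth.

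Between the libraries, gated cells of VEGF/LysM held far less Cyp26b1 and more class II antigen presentation RNA, most of it in a few cells, while 0 of 11 measured venous genes passed 1.5-fold. Of 5054 genes with at least 100 UMIs over the gated cells of both libraries, 2.55% were at least 1.5-fold higher in VEGF/LysM and 1.74% at least 1.5-fold lower, where in the other Plvap-positive cells 2.3% of 9627 were higher and 1.51% lower. Cyp26b1 (ENSMUSG00000063415, chromosome 6, 84571414 to 84593908, minus strand) ranked first among the lower genes, with 30 UMIs in 22 of 379 gated cells of VEGF/LysM and 179 UMIs in 91 of 606 of WT. It stood at 22.5 CPM in VEGF/LysM and 161 CPM in WT, a log2 ratio of -2.84 (-3.45 to -2.28). In the other Plvap-positive cells it was lower as well, at 144 and 486 CPM, a log2 ratio of -1.75.

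Cdh13, which encodes T-cadherin, followed with 20.97 CPM in VEGF/LysM and 80.2 CPM in WT (log2 -1.94), while the other Plvap-positive cells differed little (-0.16). Its 28 UMIs in VEGF/LysM lay in 8 gated cells, and after thinning to 1000 UMIs its ratio was -0.56. Itga8, the integrin alpha 8 gene, stood at 37.4 CPM in VEGF/LysM and 75.7 CPM in WT, and Rora, a nuclear receptor gene, at 465 and 704 CPM. Lhfpl2, B3galt1, Amotl2, Traf3, Slc12a2, Sfi1 and the noncoding Gm42826, Gm11867, Tug1 and Gm26870 were also lower, with log2 ratios between -1.28 and -0.82. After thinning, the ratios of Traf3, Slc12a2, Gm11867 and Gm26870 were between -0.48 and -0.09, and that of Gm42826 was 0.18.

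The highest-ranked genes were those of macrophages and of antigen presentation: C1qc, Ctss, H2-Aa, Cd74, Apoe, Fyb, H2-Ab1, H2-Eb1 and Ctsc. C1qc, a complement subunit, stood at 73.4 CPM in VEGF/LysM and 18.9 CPM in WT, and Cd74, the class II invariant chain, at 346 and 132 CPM. The log2 ratio of C1qc was -0.41 after thinning to 1000 UMIs, and that of Ctsc -0.39 without the 5% deepest cells. A few cells held most of this RNA. At least 3 of 10 myeloid marker genes, all of them seen in each library's gated cells, were detected in 14 gated cells of VEGF/LysM and 13 of WT, with medians of 6175 and 4246 UMIs. These cells held 98.0% and 100% of the C1qc UMIs of gated cells, 99.2% and 100% of those of Ctss, and 90.0% and 89.7% of those of Cd74. The 10 marker genes summed to 724 CPM in gated cells of VEGF/LysM and 338 CPM in WT.

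Without cells carrying at least 2 UMIs of myeloid, lymphoid, mural, fibroblast, chromaffin, erythroid or platelet markers, 287 of 379 gated cells of VEGF/LysM and 538 of 606 of WT were left. A fixed limit is reached more easily in a deeper cell, so this filter depends on depth as the gate does. In the cells left, Ctss had 0 UMIs in both libraries and C1qc 1 UMI in VEGF/LysM and 0 in WT, but the class II genes still differed. H2-Ab1 stood at 49.6 CPM in VEGF/LysM (35 cells) and 12.1 CPM in WT (11 cells), a log2 ratio of 2.03 (1.06 to 3.13). Cd74 stood at 35.3 and 3.31 CPM, with 32 and 3 UMIs, and H2-Eb1 at 27.6 and 5.51 CPM. H2-Aa had 21 UMIs in 20 cells of VEGF/LysM and 0 in WT, with 2.38 as the lower bound of its log2 ratio. These genes were looked at in this subset after their values were seen, and the part of free or macrophage RNA in them was not tested. The same cells had 2 UMIs of Lyz2 and 2 of C1qb in each library. Both genes are among the markers that defined this filter, so their low counts follow from it and do not show how much macrophage RNA was left. In the other Plvap-positive cells, filtered the same way, Cd74 stood at 68.3 CPM in VEGF/LysM and 10.3 CPM in WT, so the difference was not confined to gated cells.

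**Figure D4:**
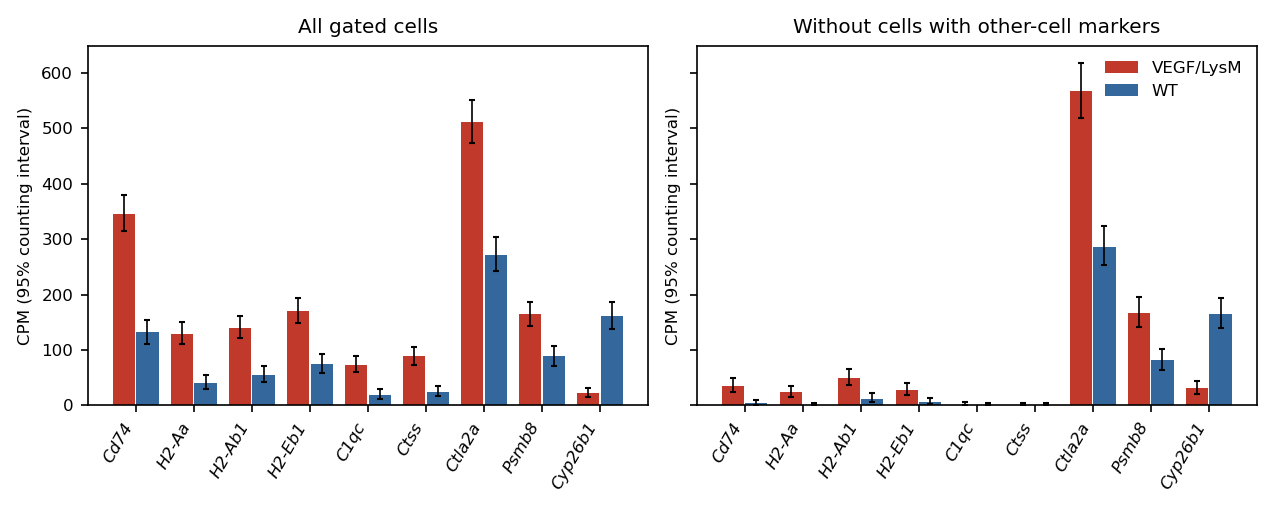
CPM of 9 genes (y axes, from 0) in gated cells of VEGF/LysM and WT, for all gated cells (left) and without cells that carry at least 2 UMIs of other-cell markers (right); error bars are 95% counting intervals. C1qc and Ctss fall to at most 1.10 CPM on the right, whereas Ctla2a, Psmb8 and Cyp26b1 keep their difference between the libraries.

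Other genes higher in VEGF/LysM stayed higher without the marker-bearing cells. Ctla2a, an inhibitor of cathepsins, stood at 511 CPM in VEGF/LysM and 272 CPM in WT, and at 568 and 287 CPM without those cells. Lrfn2, a synaptic adhesion gene, stood at 65.2 and 22.5 CPM, in 62 gated cells of VEGF/LysM and 18 of WT. H2-Q7, a class Ib antigen presentation gene, stood at 253 and 139 CPM, and the interferon-inducible Ifi207 at 59.2 and 24.3 CPM. Without the marker-bearing cells Lrfn2 stood at 71.6 and 24.2 CPM and H2-Q7 at 260 and 142 CPM. Ifi207 then fell from 79 to 35 UMIs in VEGF/LysM. It stood at 38.6 and 19.8 CPM, a log2 ratio of 0.96 (0.10 to 1.87). CT010467.1, a ribosomal RNA locus, stood at 3657 and 2265 CPM and differed to the same degree in the other Plvap-positive cells (log2 0.69 and 0.68).

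Of 18 measured interferon and class I genes 5 were at least 1.5-fold higher and 0 lower, with a median log2 ratio of 0.47 where all genes had -0.02. They were Psmb8 and Psmb9, subunits of the immunoproteasome, Bst2, Ifi27l2a and Ifit2. Psmb8 stood at 164 CPM in VEGF/LysM and 88.3 CPM in WT, and Ifi27l2a had a log2 ratio of 1.00 that was -0.28 after thinning to 1000 UMIs. The class I heavy chain gene H2-K1, at 1608 and 1145 CPM (log2 0.49), and B2m, which encodes its light chain (0.42), did not pass. All 4 measured class II genes were higher. Among heat-shock genes 1 of 7 was higher, Hspa8, at 288 and 181 CPM. Of glucocorticoid response genes 1 of 11 was higher, Zbtb16, a transcription factor induced by glucocorticoids, at 163 and 91.0 CPM. Of 19 oxidative phosphorylation genes 2 were higher, Ndufs8 and Cox5a, with a median of 0.28. Over all genes 2.55% were higher in gated cells and 2.3% in the other Plvap-positive cells. In those other cells 3 of 19 interferon and class I genes were higher and 1 lower, and 5 of 5 class II genes were higher. There 5 of 11 heat-shock, 1 of 13 glucocorticoid response and 1 of 19 oxidative phosphorylation genes were higher too. Higher members of these lists were thus not confined to gated cells.

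The venous list had 0 of 11 genes higher and 0 lower. Nr2f2 stood at 1049 CPM in VEGF/LysM and 898 CPM in WT, a log2 ratio of 0.23 (0.11 to 0.34), and Vcam1 at 95.8 and 93.7 CPM. The VEGF-A receptors stayed within 1.5-fold: Kdr had a log2 ratio of -0.26 (-0.34 to -0.18), Flt1 of 0.04 and Nrp1 of -0.03. Of 13 genes of fenestrae and caveolae 1 was higher, Cavin3, at 386 and 245 CPM, and its log2 ratio of 0.65 was 0.33 after thinning. Of 10 semaphorin and plexin genes 0 passed in either direction. Fabp4, a fatty acid carrier of capillaries, stood at 2502 and 1704 CPM, and in the other Plvap-positive cells at 3905 and 2366 CPM.

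The difference between the libraries was then set against that in the other Plvap-positive cells. Of 7712 genes with at least 20 UMIs in each of the 4 sums, 4.02% had a ratio at least 1.5-fold higher in gated cells and 3.63% at least 1.5-fold lower. Cyp26b1 had the larger fold difference in gated cells, by -1.09 on the log2 scale (-1.66 to -0.52). After thinning, its level was also taken in Plvap-positive cells under the Esm1 and Npr3 limit. Those with 1 gate gene held Cyp26b1 at 25.9 CPM (6 UMIs) in VEGF/LysM and 177 CPM (78 UMIs) in WT. Those with 0 gate genes held it at 94.6 and 238 CPM. Whether the larger difference is particular to gated cells was not tested. Nlgn1 and Pcdh9 differed less in gated cells, with log2 ratios of -0.51 and -0.52, than in the other cells, with -1.72 and -1.50, so that their contrast with the other cells was steeper in VEGF/LysM. For Nlgn1 the difference of these ratios, 1.20, was 0.57 when cells with any Esm1 or Npr3 UMI were left out of the gate and -0.02 after thinning. Gm6213 and Tox behaved alike, with differences of 0.93 and 1.14 that were 0.33 and -0.44 after thinning, and Wdr17 and Gm30648 had 1.71 and 1.57 on at most 45 UMIs in gated cells.

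Eln, the elastin gene, had unequal ratios in gated and in other cells. It stood at 77.9 CPM in gated cells of VEGF/LysM and 39.7 CPM in those of WT, a log2 ratio of 0.97 (0.45 to 1.52), against 16.5 and 17.5 CPM in the other Plvap-positive cells, and the difference of the ratios was 1.06 (0.39 to 1.72). Its 104 UMIs in VEGF/LysM lay in 43 gated cells. Dach1, a transcription factor gene, had ratios of -1.38 in gated and 0.02 in other cells, but only 7 gated cells of VEGF/LysM carried it, and with at least 3 gate genes the difference of -1.40 was 0.15.

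**Figure D5:**
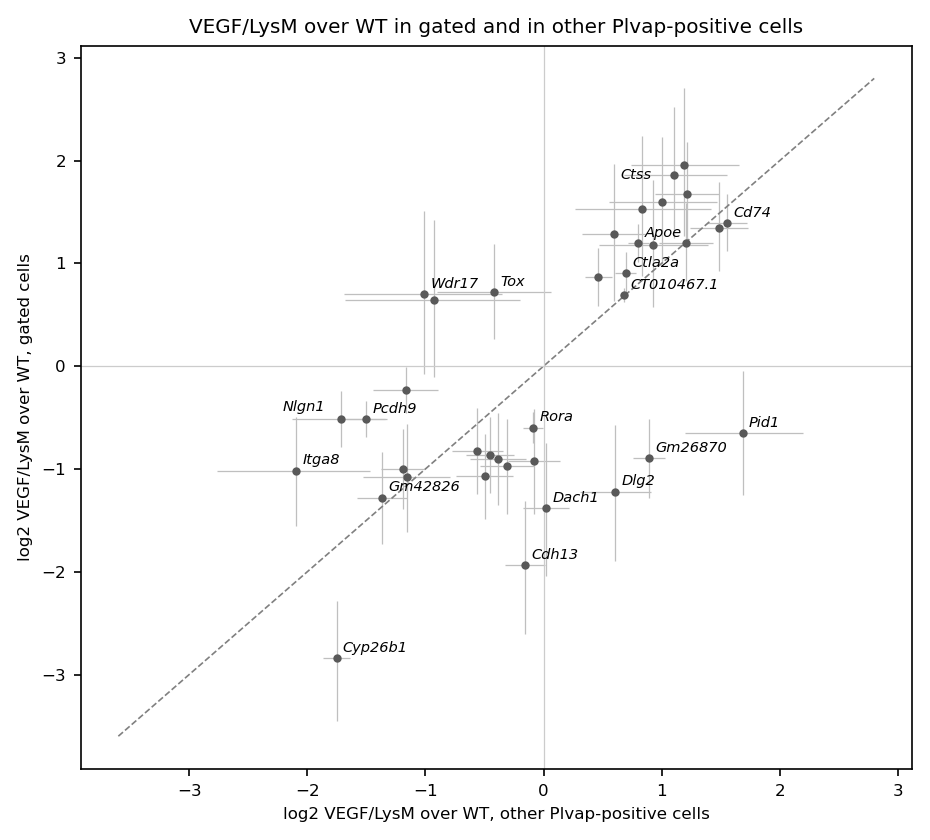
Log2 ratio of VEGF/LysM over WT in gated cells (y axis) against that in other Plvap-positive cells (x axis) for the named genes; lines are 95% counting intervals and the dashed line marks equal ratios. Cyp26b1 lies lowest at -2.84 and -1.75, the genes of macrophages and antigen presentation lie together at the upper right, and Nlgn1 and Pcdh9 lie above the dashed line.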

How the data were processed

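Single-cell RNA of sorted adrenal endothelial cells was measured in 1 VEGF/LysM and 1 WT library. The deposited matrices hold UMI counts per gene and barcode, made by the authors with Cell Ranger 7.0.1 against mm10, with Seurat also named, per the submitters' processing notes; the matrix header names Cell Ranger 7.0.0, per the file headers. No source used here gives the annotation, the strand setting or whether introns were counted. The deposited barcodes numbered 3807 with 10323972 UMIs in VEGF/LysM and 6276 with 8606348 UMIs in WT. Cells needed at least 500 UMIs, 300 genes and at most 15% mitochondrial UMIs, which left 3793 and 6134.

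Counts were summed over cells and given as CPM. With 1 library per genotype no test was possible, so ratios carry exact conditional binomial intervals, levels exact Poisson and shares Clopper-Pearson intervals (95%), which cover counting error only, and a gene is counted as higher or lower past 1.5-fold. A gene was measured with at least 100 UMIs over the cells compared, or at least 20 in each of 4 sums for a ratio of ratios. Named genes had at least 20 CPM and were ranked by the interval bound nearest to equal levels, taking the weaker library for gated over other cells. The 14 highest and 14 lowest, or 6 and 6 for the ratio of ratios, are named, and so are up to 4 members of each list in each direction and members with a role in vessel type, VEGF, retinoic acid or semaphorin signalling. Gate, ribosomal-protein, mitochondrial and other-cell marker genes were left out of the ranking. The cells, gene lists and comparisons were chosen with earlier results of these data known. The automatic threshold of Scrublet called 2 cells of VEGF/LysM and 0 of WT, so doublets were kept, and leaving out the 116 and 315 highest scores was an alternative. Gene coordinates come from GENCODE M21 (GRCm38), which held 54723 of 54838 gene identifiers, and promoters from RefSeq GRCm38.p6. Python 3.11.15, numpy 2.4.6, scipy 1.17.1, pandas 2.3.3, scanpy 1.11.5, matplotlib 3.10.9, and for TMM scaling R 4.3.3 with edgeR 4.0.16 were used, and the scripts were tested on simulated data.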

Additional observations from a re-analysis of the deposited data

Results flagged for a closer look

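For 3 genes the ratio of VEGF/LysM over WT ran in opposite directions in gated and in other Plvap-positive cells, and the difference itself was not tested. Pid1 had a log2 ratio of -0.65 (-1.26 to -0.05) in gated and 1.69 (1.20 to 2.20) in other cells, a difference of -2.33. Its UMIs lay in few cells, with 43 UMIs in 6 gated cells of VEGF/LysM and 56 in 5 of WT, 28 of them in 1 cell, and with 3 of the 6 gate genes the difference was 3.44. Dlg2 had -1.22 in gated and 0.61 in other cells, a difference of -1.83, while 1 cell held 108 of its 278 UMIs in the other cells of VEGF/LysM and 1 cell 26 of its 60 UMIs in gated cells of WT. Without the cell with most UMIs in each group the difference was -0.65, and after thinning to 1000 UMIs it was 0.092. Gm26870, a long intergenic RNA, had -0.90 in gated and 0.89 in other cells, a difference of -1.79, while 1 cell held 533 of its 1455 UMIs in the other cells of VEGF/LysM, and after thinning the difference was 0.11.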

How the results depend on the processing

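No paired analysis was possible because each genotype has 1 library, and for the same reason no replicate could be left out. The share of gated cells among Plvap-positive cells, given for thinning to 1000 UMIs with a difference of -6.02 points, depended on depth and gate. It was 4.72% in VEGF/LysM and 8.29% in WT at 700 UMIs (-3.58 points), 11.7% and 19.5% at 1500 UMIs, 15.9% and 16.6% without thinning (-0.73 points), 1.77% and 4.22% with 3 of the 6 genes (-2.45 points), 11.3% and 17.2% with at least 2 Plvap UMIs, and 3.97% and 7.86% of all cells deep enough (-3.90 points). Thinning to 1000 UMIs left 94 higher and 128 lower of 3830 measured genes in gated over other cells, against 174 and 232 of 7893 without it. In VEGF/LysM over WT it left 24 and 41 of 840, against 129 and 88 of 5054. In the ratio of ratios it left 142 and 31 of 1530, against 310 and 280 of 7712. Fewer genes were measured by construction, but the balance of higher and lower genes also changed in the last 2 comparisons. With no minimum of UMIs the counts were 1275 and 2458 of 23779, 4204 and 3977 of 18926, and 2366 and 2228 of 14934. Against other cells without Esm1 and Npr3, 99 of 7893 genes were higher in gated cells. Without cells carrying other-cell markers 83 of 4028 genes were higher in VEGF/LysM. With an equal mix of cells with and without Bgn 146 of 5054 were lower, and with 3 of the 6 genes 174 of 5120 ratios of ratios were higher. The cause was not tested. Values past 1.5-fold kept their direction in 1204 of 1206 cases for gated over other cells of VEGF/LysM, in 1103 of 1103 for WT, in 574 of 579 for VEGF/LysM over WT and in 146 of 153 for the ratio of ratios. The exceptions after thinning were Cd36 in VEGF/LysM gated over other cells (0.12), C1qc (-0.41), Gm42826 (0.18), Ifi27l2a (-0.28) and Nr4a1 (0.038) in VEGF/LysM over WT, and Nlgn1 (-0.023), Tox (-0.44), Gm26870 (0.11) and Dlg2 (0.092) in the ratio of ratios. Without the 5% deepest cells they were Sele in VEGF/LysM gated over other cells (-0.14), Ctsc in VEGF/LysM over WT (-0.39) and Dlg2 in the ratio of ratios (0.14), and with 3 of the 6 genes Pid1 (3.44) and Dach1 (0.15) in the ratio of ratios. Leaving out the cell with most UMIs of a gene, and cells whose barcode is in both libraries, were alternatives chosen after seeing the data. All settings reuse the same cells, and a value that shrank without changing sign counted as kept. Over all genes checked, further values lay outside the main counting interval. They numbered 212 and 156 for gated over other cells of VEGF/LysM and WT. For VEGF/LysM over WT they numbered 103, and for the ratio of ratios 26.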

Other observations

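Outside the gate, 25 of 1409 Plvap-negative cells of VEGF/LysM and 116 of 2490 of WT met every other condition of the gate. A list of 6 proliferation genes summed to 109 CPM in gated cells of VEGF/LysM and 37.8 CPM in WT, and at least 3 of them were detected in 4 and 1 gated cells.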
